A study of Mus musculus with 88 samples.

Results

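The Hivep genes encode 3 large zinc-finger transcription factors, Hivep1, Hivep2 and Hivep3, and are described here across the responses of a mouse macrophage line to a bacterial product and to 2 ligands that act through cyclic AMP. The members were the genes of this family with a probe in the array's probe-to-gene table. All 3 were found, with 1 probe each, among 10518 genes measured. Hivep3 was selected on these same measurements, because its ratio was lower with LPS and either ligand than with LPS alone. Its values in every group with LPS are therefore given as a description with no test, and Hivep1 and Hivep2 were tested throughout. In the RefSeq annotation of GRCm38.p6, Hivep1 lies at chr13:42051899-42185030, Hivep2 at chr10:13961609-14151378 and Hivep3 at chr4:119733759-120138045. Which exons the probes match was not analysed here.

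RAW 264.7 cells, a transformed mouse line that grows as macrophages, were kept for 1, 2 or 4 h with 1 of 5 treatments. These were lipopolysaccharide (LPS, 100 ng/ml, with 100 pM lipid binding protein), isoproterenol (ISO, 50 nM), prostaglandin E2 (PGE2, 10 µM), LPS with ISO, and LPS with PGE2. The labels name the binding protein for LPS alone only. By the labels, a combination thus differs from LPS alone in the ligand and in the binding protein. Their parts in a difference from LPS alone, or from the sum of single treatments, cannot be told apart. Each RNA was hybridised on 2-colour arrays against RNA from time-matched cells in plain medium, once with the treated RNA in Cy5 and once with it in Cy3. Such a dye-swap pair was averaged to 1 value and is called a set, and the 88 arrays gave 3 sets in each of 15 groups, except 2 sets for PGE2 at 1 h. All samples were of 1 cell line, and no label says whether the sets are separate cultures. A p-value here thus reflects how far sets scatter, and that scatter may be technical.

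Every value is a log2 ratio of treated over medium cells unless it is called a difference, so a value of 1 is a level 2-fold above medium. The scale was inferred, and the direction is likely rather than stated: 12 genes known to respond to LPS had a median above 0 on 18 of 18 arrays with LPS alone. Only ratios were used here, so levels of different genes cannot be compared and the identity of the cells cannot be checked by level. Of 9 macrophage markers 8 had a probe. Adgre1, Csf1r, Cd68, Spi1 and Fcgr1 had a ratio other than 0 on 88 of 88 arrays, Cd14 on 87, Mertk on 19 and Lyz2 on 6. Markers of other cell types, 9 of 10 with a probe, had a ratio other than 0 on 17 to 88 arrays, and 0 of 9 passed limma's test in any of the 15 groups. With LPS at 4 h, 3 of 8 macrophage markers rose (Fcgr1 by 1.73) and Csf1r fell by 0.68 on the log2 scale, and the part of such shifts in the members' values was not tested. The number of arrays limits the precision.

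Hivep proteins, also named Schnurri or ZAS proteins, carry pairs of zinc fingers far apart in a long chain and bind kB-type DNA sequences, the elements that NF-kB also binds. Hivep1 was first found through binding to the enhancers of MHC class I and interferon beta genes, Hivep2 (Schnurri-2) acts with Smad proteins downstream of bone morphogenetic proteins and restrains NF-kB in T cells, and Hivep3 (Schnurri-3) binds the adaptor Traf2, partners with Jun in T cells and links Runx2 to the ubiquitin ligase Wwp1 in bone-forming cells. LPS signals through Toll-like receptor 4 to NF-kB, AP-1 and interferon factors. ISO and PGE2 act on receptors that raise cyclic AMP, which can dampen part of that response in macrophages.

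The sequences before the transcription starts of Hivep2 and Hivep3 are shown because these are the members with the larger values with LPS at 4 h. They come from RefSeq on GRCm38.p6 and hold the 250 bases before the start listed for each gene, on the plus strand, written 5′ to 3′. Capitals mark a match to the kB motif in its degenerate form. Hivep2 lies at chr10:13966129-13966378 and Hivep3 at chr4:119814428-119814677. Both windows lie inside the span that RefSeq gives for the gene, so other starts may exist further upstream.
Hivep2: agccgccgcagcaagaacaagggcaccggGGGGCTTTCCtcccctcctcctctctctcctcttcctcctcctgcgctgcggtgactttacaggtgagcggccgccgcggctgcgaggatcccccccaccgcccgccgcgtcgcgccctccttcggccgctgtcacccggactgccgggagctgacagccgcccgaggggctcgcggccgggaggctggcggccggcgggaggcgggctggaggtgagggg
Hivep3: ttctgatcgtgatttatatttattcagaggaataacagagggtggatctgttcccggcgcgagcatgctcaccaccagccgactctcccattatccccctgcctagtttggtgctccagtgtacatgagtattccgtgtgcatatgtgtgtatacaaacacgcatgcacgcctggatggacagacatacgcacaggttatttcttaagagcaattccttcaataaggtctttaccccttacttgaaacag

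Both strands were searched for the kB motif, the cyclic AMP response element TGACGTCA, its core TGACG, the AP-1 site TGANTCA and the GC box GGGCGG. The core overlaps the full element. The Hivep2 window held 1 kB match, GGGGCTTTCC, at −221 to −212 from the start, and 2 GC boxes. The corresponding Hivep1 window, at chr13:42051771-42052020, held the palindrome GGGGATCCCC at −30 to −21, which matches the kB motif on both strands, and 14 GC boxes. This kB match lies inside the span that RefSeq gives for Hivep1, which starts at chr13:42051899. The Hivep3 window held no match to any of these motifs. Among 32851 RefSeq windows of the same length, 7.25% held a kB match, 1.55% the full cyclic AMP element, 17.8% its core, 6.75% the AP-1 site and 32.7% the GC box. GC content was 88.4% for Hivep1, 75.2% for Hivep2 and 46.4% for Hivep3, beside a median of 52.4% over all windows, and the numbers of CpG sites were 41, 29 and 9 beside a median of 6. These letters describe the windows and say nothing on binding in these cells.

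The dye orientations of set 1 matched less well for Hivep2, and less clearly so for the other members. For Hivep2 the median gap between the arrays of a pair was 0.57 in set 1, 0.11 in set 2 and 0.08 in set 3, beside medians over all probes of 0.16, 0.14 and 0.12. For Hivep1 the gaps were 0.19, 0.12 and 0.06, and for Hivep3 0.24, 0.22 and 0.13. The arrays of a pair had opposite signs in 6 of 15 set 1 pairs for Hivep2, 5 of 15 for Hivep1 and 4 of 15 for Hivep3, and in set 3 in 0, 1 and 1 of 14. Across all probes, the 27 pairs with LPS had a correlation between orientations of 0.204 to 0.850, and the 17 pairs without LPS of −0.58 to 0.32, with 10 of these below 0. By set the medians were 0.526, 0.514 and 0.667 with LPS and −0.03, −0.06 and 0.07 without, so over all probes sets 1 and 2 had similar medians. The deposited value was exactly 0 on 1 of 88 arrays for Hivep1, 1 for Hivep3 and 0 for Hivep2.

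**Figure D1:**
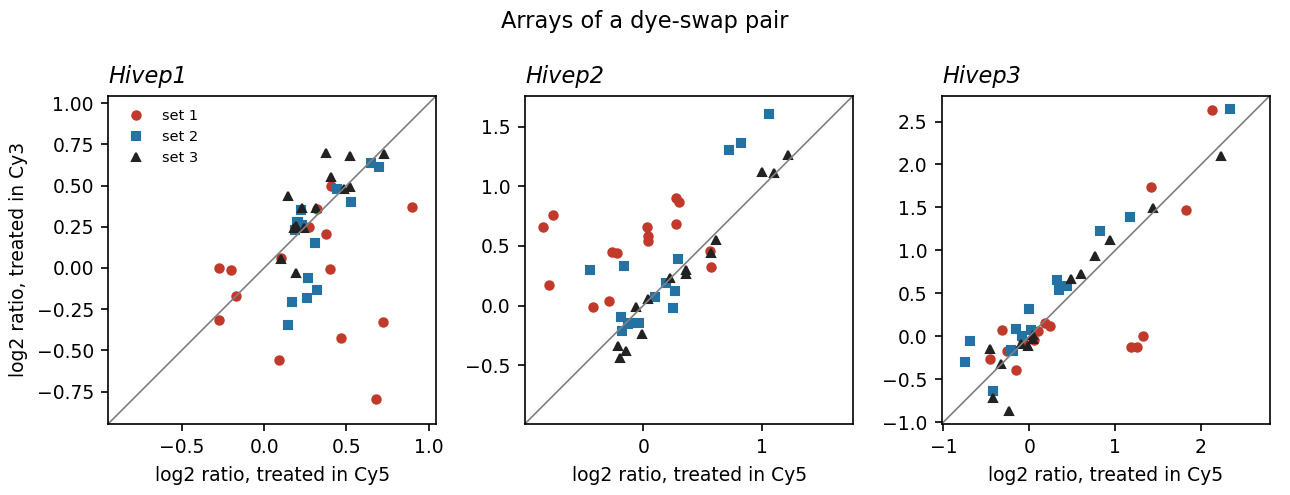
Log2 ratio of treated over medium on the array with treated RNA in Cy5 (x axis) and in Cy3 (y axis), 1 point per dye-swap pair, for each Hivep gene, with the line of equal values. Points of set 3 lie nearest the line, and for Hivep2 the 15 pairs of set 1 had a median gap of 0.57.

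Hivep3 had the highest ratio of the members. LPS left it near the level of medium at 1 h, with set values of −0.05, −0.04 and 0.03 and a mean of −0.02 ± 0.044 (SD, n = 3). At 2 h the sets stood at 1.65, 0.51 and 1.46, a mean of 1.21 ± 0.61, which is 2.31-fold above medium. Set 2 was the low one at 2 h, on both of its arrays (0.44 and 0.58). At 4 h the sets stood at 2.38, 2.49 and 2.16, a mean of 2.35 ± 0.17, or 5.08-fold above medium. The sets at 4 h lay above all those at 2 h, and those at 2 h above all those at 1 h. How many of all genes show such separation between times was not counted. The rule used these values, so the rise is described and not tested. With LPS, Hivep3 ranked 147 of 10518 genes at 2 h and 101 at 4 h.

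LPS with ISO gave a lower mean Hivep3 ratio than LPS alone at each time. At 4 h the sets with ISO stood at 0.66, 1.03 and 0.66, a mean of 0.78 ± 0.21 (1.72-fold above medium), and all 3 lay below the lowest set of LPS alone. The difference from LPS alone was −1.72 in set 1, −1.46 in set 2 and −1.50 in set 3, a mean of −1.56 with a standard error of 0.20 from limma's fit. The level was thus 33.9% of that with LPS alone. Set 1 of LPS with ISO holds the array with a deposited 0, beside 1.33 on its partner. With zeros taken as missing the mean with ISO was 1.01 and the difference −1.34.

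LPS with PGE2 gave a smaller difference in the same direction. The sets of LPS with PGE2 at 4 h stood at 1.57, 1.28 and 0.85, a mean of 1.24 ± 0.36 (2.36-fold above medium), and again all 3 lay below the lowest set of LPS alone. The differences from LPS alone were −0.81, −1.21 and −1.31, a mean of −1.11 with a standard error of 0.20, which leaves 46.4% of the level with LPS alone. Over all genes, 2.29% had every set of LPS with ISO below every LPS set at 4 h, 2.92% had this with PGE2 and 0.799% with both. Since Hivep3 was chosen for this pattern, nothing is read from its place among them. The combinations share the LPS samples, so their differences are not independent of each other.

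At 2 h the separation was less even. The sets of LPS with ISO stood at 0.53, 0.44 and 0.58 (mean 0.52 ± 0.068), and those of LPS with PGE2 at 0.56, 0.49 and 1.03 (mean 0.69 ± 0.29). LPS alone had its set 2 at 0.51, inside the range of either combination, so the groups overlapped. The difference from LPS was −1.12, −0.07 and −0.89 with ISO (mean −0.69), and −1.09, −0.02 and −0.44 with PGE2 (mean −0.52). Set 2, which had the low LPS value, thus showed almost no difference. Without set 2 the means were −1.003 and −0.76, and without set 1 −0.48 and −0.23. In set 1 the arrays with the treated RNA in Cy5 read 1.19 with ISO and 1.25 with PGE2, and those in Cy3 −0.12 and −0.13. At 1 h the sets with ISO stood at −0.22, −0.18 and −0.33, all below the 3 LPS sets, and with PGE2 at 0.0035, −0.04 and 0.0060, within their range. The mean difference with ISO at 1 h was only −0.22, with a standard error of 0.20 from limma's fit. The share of all genes with such separation at 1 h was not counted.

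**Figure D2:**
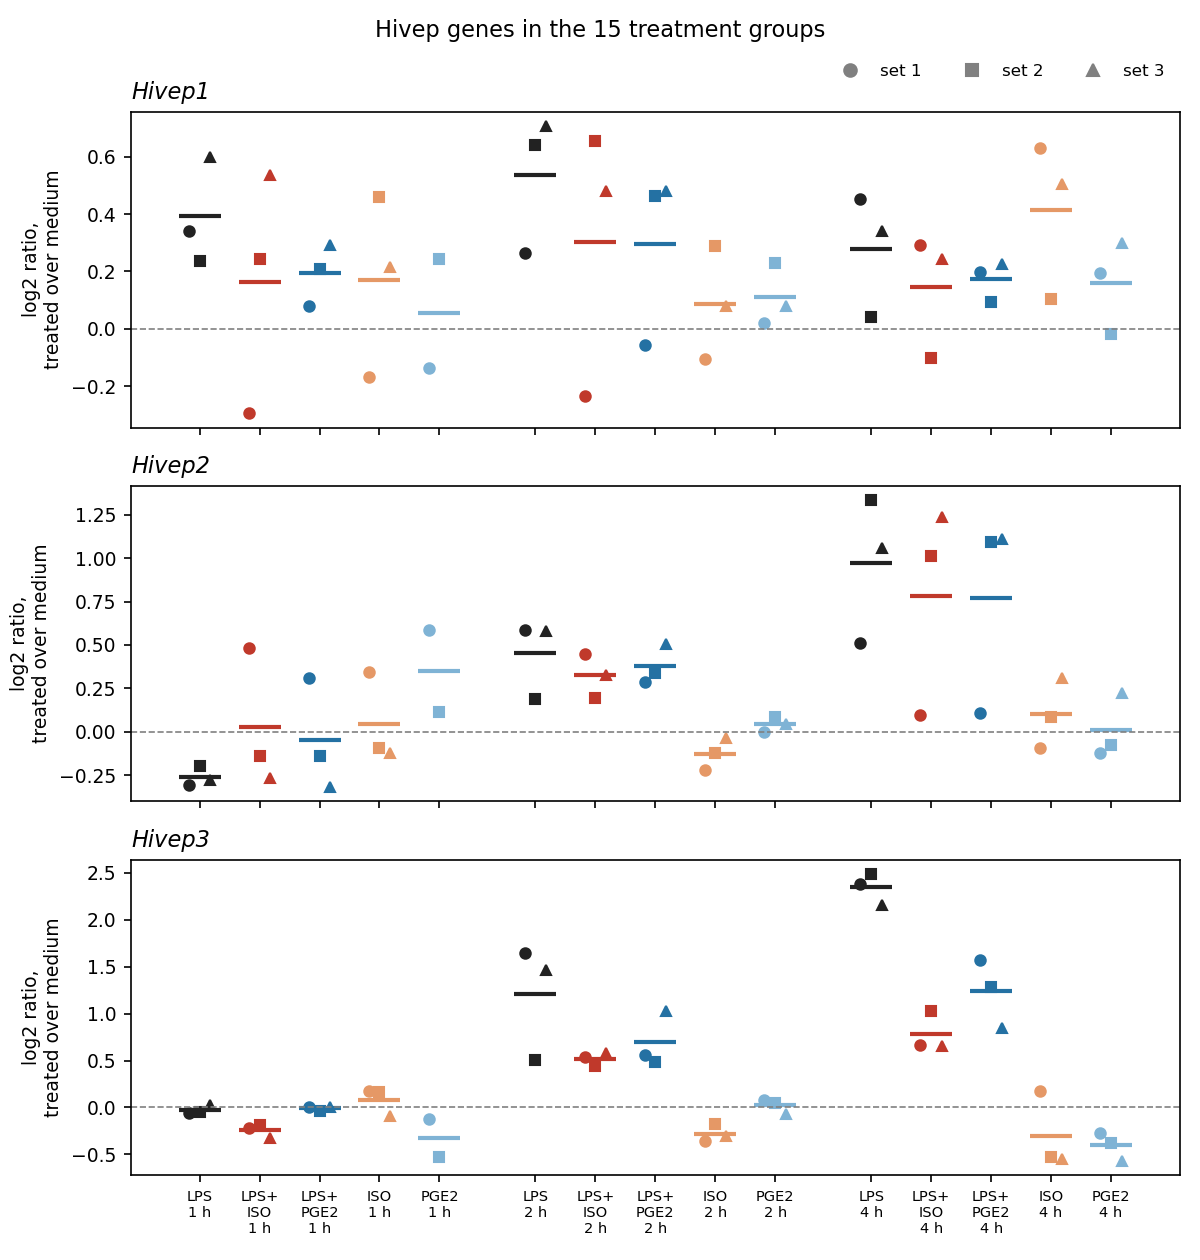
Log2 ratio of treated over medium for each set (circle set 1, square set 2, triangle set 3) and the mean of sets (bar) in the 15 groups, for each Hivep gene on its own y axis. Hivep3 with LPS at 4 h lies at 2.16 to 2.49, above every set of the other groups, whose highest value is 1.65.

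In order of the means, Hivep3 with LPS at 4 h (2.35) came first, and no set of any other group reached its lowest set. LPS with PGE2 at 4 h (1.24) and LPS at 2 h (1.21) followed and did not differ beyond their spread. LPS with ISO at 4 h (0.78), LPS with PGE2 at 2 h (0.69) and LPS with ISO at 2 h (0.52) came next. The sets of LPS with PGE2 at 2 h overlapped those of LPS with ISO at either time. All sets of LPS with ISO at 4 h lay above its sets at 2 h. The share of all genes with such gaps between groups was not counted. The remaining 9 groups lay between −0.41 (PGE2 at 4 h) and 0.08 (ISO at 1 h).

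Among the 374 genes raised at least 2-fold by LPS at 4 h, 6 had a difference of −1 or lower with ISO and 5 with PGE2, and 2 of them were in both. These 2 were Hivep3 and Pgpep1, a pyroglutamyl peptidase gene, which is named here because its values were seen, with differences of −1.32 with ISO and −1.80 with PGE2. In the same 374 genes, 11 had every set of both combinations below every LPS set. Over all 374 the median difference was −0.06 with ISO and −0.06 with PGE2. Hivep3 was chosen on these differences, so its place among these genes is no finding.

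**Figure D3:**
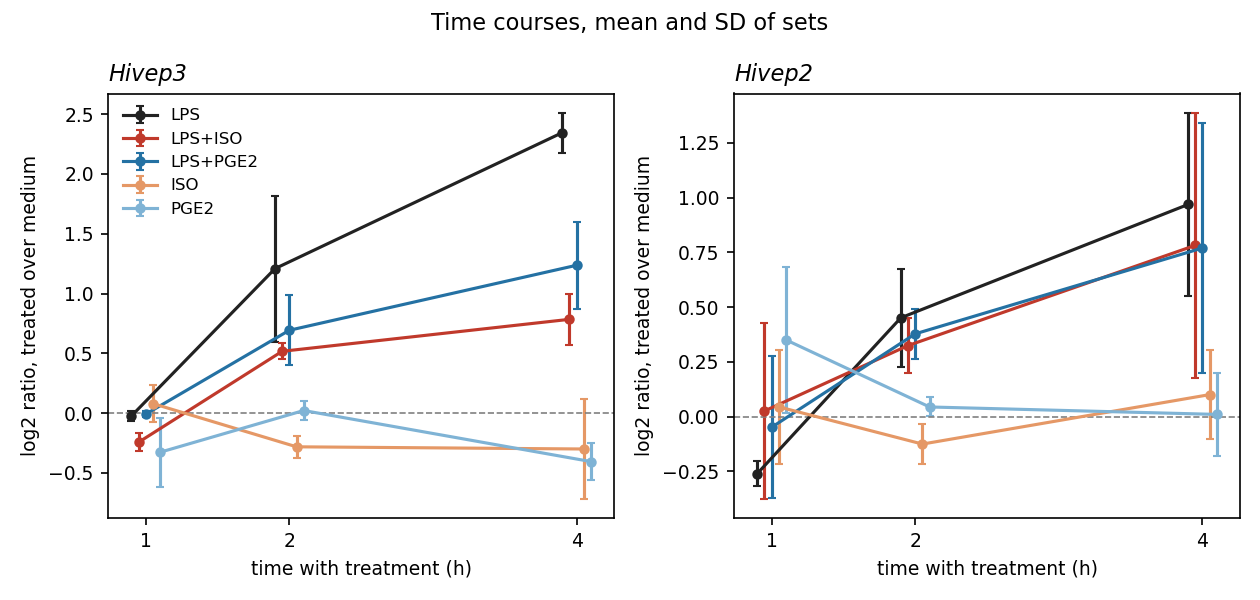
Mean log2 ratio of treated over medium (y axis) against time with treatment (x axis, h) for Hivep3 and Hivep2, with bars for the SD of sets (n = 3, and n = 2 for PGE2 at 1 h). For Hivep3 the LPS line ends at 2.35 and the combinations at 0.78 and 1.24. For Hivep2 the 3 lines with LPS end at 0.97, 0.78 and 0.77 with overlapping bars. Hivep3 was chosen on its values with LPS, so the contrast between the genes is no finding.

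Hivep2 rose with LPS at 4 h, with a smaller ratio than that of Hivep3. With LPS its sets stood at −0.31, −0.20 and −0.28 at 1 h (mean −0.26 ± 0.056), at 0.58, 0.19 and 0.58 at 2 h (0.45 ± 0.23) and at 0.51, 1.33 and 1.06 at 4 h (0.97 ± 0.42, 1.96-fold). All sets were below medium at 1 h and above it at 2 and 4 h. The share of all genes with such a pattern was not counted. In limma's test the 4 h value passed (adjusted p = 3.29e-05), and those at 1 h (adjusted p = 0.441) and 2 h (adjusted p = 0.0798) did not. The tested share that passed over all genes was 9.48% at 1 h, 15.9% at 2 h and 30.7% at 4 h. Without set 1 the 2 h value also passed (adjusted p = 0.00736). With only the LPS group in the fit, the 4 h value did not pass (adjusted p = 0.109).

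The Hivep2 response to LPS differed between times. From 1 to 4 h it rose by 1.23 (95% interval 0.73 to 1.73, limma adjusted p = 0.000292), where 19.9% of all genes passed. This call was lost without set 2 (1.08, adjusted p = 0.0662). The step from 1 to 2 h was 0.71 (adjusted p = 0.150) and that from 2 to 4 h 0.52 (adjusted p = 0.225), and neither passed, beside 2.05% and 11.0% of all genes. Without set 1 both passed (0.62, adjusted p = 0.0344, and 0.81, adjusted p = 0.000357). For Hivep1 none of these 3 differences passed in limma, with the smallest adjusted p at 0.557 and 0 of 3 at an unadjusted p under 0.05.

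For Hivep2 no difference between the combinations and LPS alone passed the test. At 4 h the sets stood at 0.09, 1.01 and 1.24 with LPS and ISO (mean 0.78 ± 0.61) and at 0.11, 1.09 and 1.11 with LPS and PGE2 (mean 0.77 ± 0.57). Set 1 was low in both combinations, where its arrays read −0.26 and 0.45 with ISO and −0.22 and 0.44 with PGE2. Against medium both passed in limma (adjusted p = 0.000551 and 0.000645), beside 30.0% and 31.6% of all genes. Both calls were lost without set 2 (adjusted p = 0.0774 and 0.107) and without set 3 (adjusted p = 0.124 and 0.0864). With only the compared group in the fit they were also lost (adjusted p = 0.297 and 0.270), and on Cy5 arrays alone the call with ISO was (adjusted p = 0.0517). Against LPS alone the differences were −0.19 with ISO (95% interval −0.69 to 0.32) and −0.20 with PGE2 (−0.70 to 0.30). Neither passed. At 2 h the combinations had means of 0.32 and 0.38, which did not pass (adjusted p = 0.280 and 0.188), beside 13.9% and 13.3% of all genes. Without set 1 the value with PGE2 passed (0.42, adjusted p = 0.00419).

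At 1 h the Hivep2 sets of LPS with ISO stood at 0.48, −0.14 and −0.26 and those of LPS with PGE2 at 0.31, −0.14 and −0.32. Set 1 was again the one apart, here on the high side. The means of 0.03 and −0.05 did not pass, beside 7.43% and 7.68% of all genes.

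Hivep1 had small ratios in every group and rose with LPS at 2 h. Its sets with LPS stood at 0.34, 0.24 and 0.60 at 1 h (mean 0.39 ± 0.19), at 0.26, 0.64 and 0.71 at 2 h (0.54 ± 0.24, 1.45-fold) and at 0.45, 0.04 and 0.34 at 4 h (0.28 ± 0.21). All 9 sets were above medium, and the share of all genes with this was not counted. Only the 2 h value passed in limma (adjusted p = 0.00811), beside 15.9% of all genes. This call was lost without set 2 (adjusted p = 0.115) and without set 3 (adjusted p = 0.251). It was also lost on Cy3 arrays alone (adjusted p = 0.102) and with only that group in the fit (adjusted p = 0.123). The 1 h value had adjusted p = 0.0873, and 0.0481 in limma's fit with the set number as a replicate block. It also passed without set 1 (0.42, adjusted p = 0.0434). The 4 h value had adjusted p = 0.166, and 0.0494 on Cy5 arrays alone.

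At 1, 2 and 4 h Hivep1 had means of 0.16, 0.30 and 0.14 with LPS and ISO, and of 0.19, 0.30 and 0.17 with LPS and PGE2. None of the 6 passed. At 2 h set 1 lay at −0.23 with ISO and −0.06 with PGE2, while sets 2 and 3 lay between 0.46 and 0.66. Without set 1 both 2 h means passed (0.57, adjusted p = 0.00280, and 0.47, adjusted p = 0.0105). On Cy5 arrays alone they passed too (adjusted p = 0.0278 and 0.00173), as did LPS with PGE2 at 4 h (0.41, adjusted p = 0.0110). The sign of this 4 h value depended on the dye, since on Cy3 arrays alone it was −0.07 (adjusted p = 0.999 in limma). All 6 differences from LPS alone, which share the LPS sets, had means below 0, from −0.24 to −0.11. At 4 h the sets differed by −0.16, −0.14 and −0.10 with ISO, and at 2 h by −0.32, −0.18 and −0.23 with PGE2. In the other 4 comparisons the sets ranged from −0.64 to 0.05. At 4 h the 95% intervals from the unpaired fit ran from −0.55 to 0.29 with ISO and from −0.52 to 0.31 with PGE2. In limma's fit with the set number as a replicate block none of the 6 passed either (adjusted p from 0.879 to 1).

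**Figure D4:**
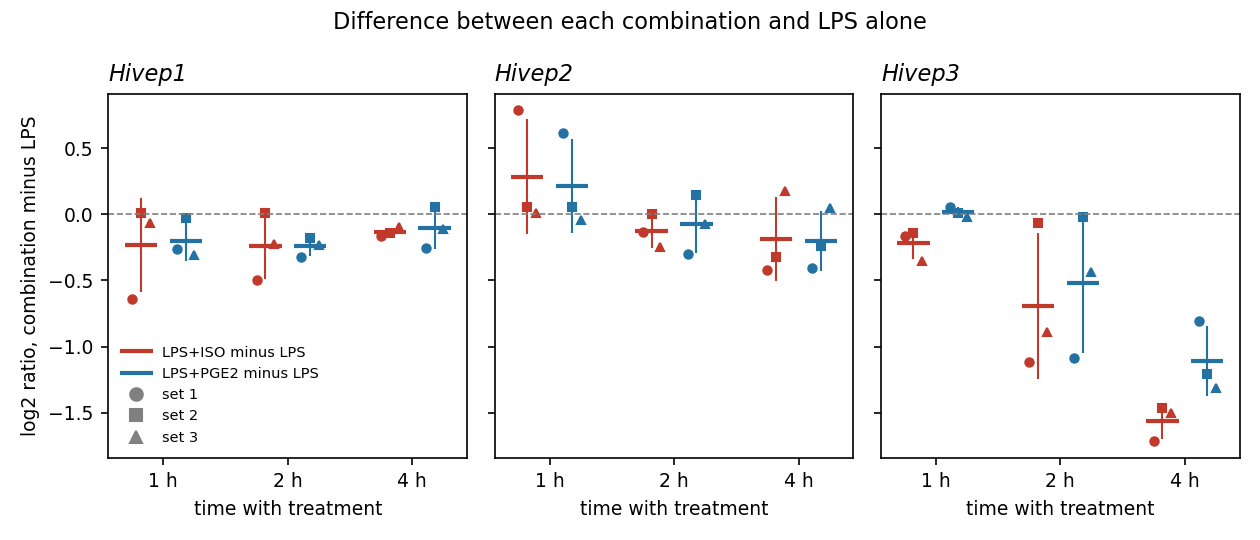
Difference in log2 ratio between each combination and LPS alone (y axis) at 1, 2 and 4 h (x axis), per set (points), with the mean (horizontal bar) and SD (vertical line, n = 3). For Hivep3 at 4 h the sets lie from −1.72 to −0.81, and the lowest set of Hivep1 or Hivep2 at any time is at −0.64. Hivep3 was chosen on these differences, so its contrast with the other members is no finding.

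Of 12 tests of a combination against LPS alone for Hivep1 and Hivep2, 0 passed in limma and 0 had an unadjusted p under 0.05. Few genes passed there at all. At 1 h the share was 0.0190% of genes with ISO and 0% with PGE2, at 2 h 0% with either ligand, and at 4 h 0.0951% with ISO and 0.0285% with PGE2. Where none passed, 484 genes at 1 h with PGE2, 308 at 2 h with ISO and 242 at 2 h with PGE2 had an unadjusted p under 0.05. Over all treatments against medium, Hivep1 passed in 1 of 15 tests and Hivep2 in 3 of 15. The Hivep1 call was with LPS at 2 h, where 15.9% of all genes passed. The Hivep2 calls were at 4 h with LPS, LPS with ISO and LPS with PGE2, where 30.7%, 30.0% and 31.6% of all genes passed.

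Without LPS the ligands gave Hivep3 values that the rule did not use, and these were tested. With PGE2 at 4 h all sets were below medium, at −0.27, −0.38 and −0.57, a mean of −0.41 ± 0.15 (SD, n = 3). With ISO at 4 h the sets stood at 0.18, −0.53 and −0.55 (mean −0.30 ± 0.41), with set 1 on the other side of 0. With ISO at 2 h all sets were below medium, at −0.36, −0.18 and −0.30 (mean −0.28 ± 0.094), and so were both sets of PGE2 at 1 h (−0.12 and −0.53). ISO at 1 h (0.08) and PGE2 at 2 h (0.02) lay close to medium. The share of all genes with every set on the same side of medium was not counted. None of the 6 passed in limma. The smallest adjusted p was 0.245 (PGE2 at 4 h, unadjusted p = 0.00786), and 2 of 6 had an unadjusted p under 0.05. The share of genes that passed was 0.903%, 1.71% and 3.36% with ISO at 1, 2 and 4 h, and 0.323%, 0.456% and 1.14% with PGE2. The arrays of a pair agreed poorly in these groups, as given above.

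Hivep1 with ISO at 4 h stood at 0.63, 0.10 and 0.51, a mean of 0.41 ± 0.28, and did not pass (adjusted p = 0.122). On the arrays with treated RNA in Cy5 alone it passed (0.56, adjusted p = 0.00472), and the set 1 arrays read 0.89 in Cy5 and 0.37 in Cy3. Its other 5 means with a single ligand lay between 0.05 and 0.17. Hivep2 lay between −0.13 and 0.10 with ISO. With PGE2 it was at 0.35 at 1 h, where its sets stood at 0.59 and 0.11, and at 0.04 and 0.01 at 2 and 4 h. None of these passed in limma.

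The ligands were compared with each other at matched times, at the 1 dose of each. For Hivep3 without LPS, ISO minus PGE2 was 0.41 at 1 h (95% interval −0.05 to 0.87), −0.30 at 2 h (−0.71 to 0.11) and 0.11 at 4 h (−0.31 to 0.52). For Hivep1 and Hivep2 the differences lay between −0.31 and 0.26 with or without LPS. Of the 15 tests 0 passed in limma and 0 had an unadjusted p under 0.05, and over all genes the share was 0% in each comparison, with 128 to 408 genes at an unadjusted p under 0.05. With LPS, Hivep3 was lower with ISO than with PGE2 by 0.23 at 1 h, 0.18 at 2 h and 0.45 at 4 h on the log2 scale, which is not tested. At 4 h this difference was −0.22 without set 1 and −0.23 with zeros taken as missing, and at 2 h it was −0.04 without set 3.

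A combination can also be set against the sum of its single treatments. For Hivep3 at 4 h LPS with ISO lay 1.26 below that sum and LPS with PGE2 0.70 below it, again as a description. At 2 h the departures were −0.41 and −0.54, and at 1 h −0.30 and 0.34, where the value with PGE2 rests on its 2 sets. For Hivep1 and Hivep2, 0 of 12 departures passed in limma and 1 had an unadjusted p under 0.05, Hivep1 with LPS and ISO at 4 h (−0.55, unadjusted p = 0.0374). Over all genes the share was 0.00951% for LPS with ISO at 2 h, 0.0856% at 4 h and 0% in the other 4 comparisons.

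Across the 15 group means, Hivep2 and Hivep3 had r = 0.848, Hivep1 and Hivep3 r = 0.336, and Hivep1 and Hivep2 r = 0.058. Across the 44 set values these were 0.681, 0.137 and −0.18. The genes were read on the same arrays and the groups are few, so the coefficients are descriptions.

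**Figure D5:**
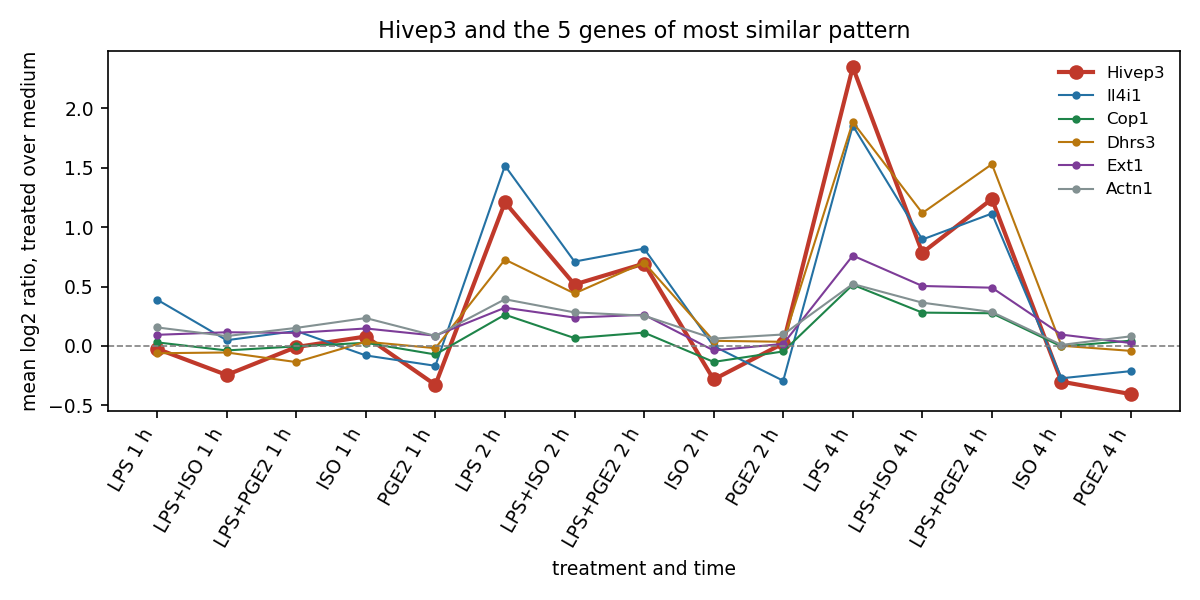
Mean log2 ratio of treated over medium (y axis) in the 15 groups (x axis) for Hivep3 and the 5 genes with the highest Pearson correlation to it. All 6 have their highest mean with LPS at 4 h, and there the means range from 0.52 for Cop1 and Actn1 to 2.35 for Hivep3.

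By correlation over the 15 group means, among 7664 genes with a ratio other than 0 on at least 80% of arrays, the genes nearest to Hivep3 were Il4i1, an L-amino acid oxidase gene (r = 0.950), Cop1, a ubiquitin ligase gene (0.946), Dhrs3, a retinal reductase gene (0.942), Ext1, which builds heparan sulfate (0.941), and Actn1, an alpha-actinin gene (0.940). Il4i1 stood at 1.85 with LPS at 4 h, at 0.90 with LPS and ISO and at 1.11 with LPS and PGE2. For Dhrs3 these means were 1.88, 1.12 and 1.53. Both had a lower mean with ISO than with PGE2, as Hivep3 did. For Cop1 (0.28 with either), Ext1 (0.50 with ISO and 0.49 with PGE2) and Actn1 (0.36 and 0.29) the mean with ISO was not the lower one. These genes were chosen for their likeness to this pattern, so their values are a description.

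The genes nearest to Hivep2 were Tor3a, a torsin ATPase gene (r = 0.955), the lipopeptide receptor gene Tlr1 (0.942), Eef1e1, of the tRNA synthetase complex (0.936), 4930428B01Rik (0.933) and the exoribonuclease gene Xrn2 (0.931). Tor3a stood at 1.97, 1.90 and 1.86 with LPS, LPS and ISO, and LPS and PGE2 at 4 h. Hivep1 had no gene as near. Its highest coefficients were for Scamp4 (0.790), the receptor gene Neo1 (0.783), the repressor gene Bcl6 (0.782), the phosphatase gene Ppm1j (0.779) and the AMP deaminase gene Ampd3 (0.772).

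Partners of the Hivep proteins and genes of their pathways were read from fixed lists. With LPS, 4.64% of all genes rose at 1 h, 8.88% at 2 h and 14.3% at 4 h in limma, while 4.84%, 7.01% and 16.4% fell, and the counts below are to be read against these shares. Of 14 listed NF-kB subunits and inhibitors 12 were measured, and with LPS 9 rose at 1 h, 11 at 2 h and 10 at 4 h in limma, with 0 lower. Their median ratio was 0.85, 1.46 and 1.34, beside 0 over all genes. The count at 1 h was 6 without set 1. Nfkbiz, which encodes a nuclear protein related to the NF-kB inhibitors, stood at 3.68 ± 0.67, 3.87 ± 0.23 and 3.02 ± 0.30 (SD, n = 3) at the 3 times. Tnfaip3, which encodes the feedback enzyme A20, stood at 2.31 ± 0.10, 2.09 ± 0.31 and 2.34 ± 0.32. At 4 h 0 of 12 passed in limma between a combination and LPS alone, and 0 had an unadjusted p under 0.05. Tnfaip3 had a difference of −0.0026 with ISO and 0.03 with PGE2, and Nfkbiz one of −0.22 and −0.06. Hivep3 stood at −1.56 and −1.11, but it was chosen on these differences, so its contrast with the NF-kB genes is no finding.

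Of 5 measured Traf adaptors 1 rose with LPS at 1 h, 2 at 2 h and 2 at 4 h, where 1 fell, and this fall was lost without set 2 or set 3. Traf1 stood at 2.75 ± 0.88, 3.16 ± 0.21 and 2.59 ± 0.20 (SD, n = 3) and Traf5 at 0.18, 1.22 and 1.15, where 0.18 did not pass. Traf2, the adaptor that Hivep3 is known to bind, had −0.0025, 0.14 and 0.14, and none passed (adjusted p = 1, 0.126 and 0.0819 in limma). In limma's fit with the set number as a replicate block the 4 h value passed (adjusted p = 0.0333). With the median of its probes it was 0.25 (adjusted p = 0.00360). Its sign depended on the dye: at 4 h it was −0.04 on Cy5 arrays alone (adjusted p = 0.908) and 0.32 on Cy3 arrays alone (adjusted p = 0.00231), and at 2 h −0.0034 and 0.29. With the combinations at 4 h Traf2 passed in limma, at 0.35 with ISO (adjusted p = 2.14e-05) and 0.19 with PGE2 (adjusted p = 0.0157), beside 30.0% and 31.6% of all genes. Both calls were lost on Cy5 arrays alone (adjusted p = 0.131 and 0.738) and with only the compared group in the fit (adjusted p = 0.0953 and 0.3015).

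Of 6 measured AP-1 subunits 4, 3 and 3 rose with LPS at 1, 2 and 4 h in limma. Another fell at 2 h. The count at 1 h was 2 without set 3, and that at 2 h was 2 without set 2 or set 3. The fall at 2 h was lost without set 1 or set 3, and without set 2 there were 2. At 4 h 2 rose without set 2 or set 3. Jun, a partner of Hivep3 in T cells, stood at 1.15 at 1 h (adjusted p = 0.000365 in limma, and 0.0767 without set 3), at −0.52 at 2 h and at 0.42 at 4 h, and the latter 2 did not pass. Without set 2 the 2 h value of Jun passed (−0.84, adjusted p = 0.0270). Fosl1, another AP-1 subunit, stood at 1.77, 1.62 and 1.33, all past the threshold. With only the compared group in the fit 0, 1 and 1 AP-1 subunits rose, and the 1 h calls of Fosl1 (adjusted p = 0.297) and Jun (adjusted p = 0.311) were lost.

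Among 15 receptors, Smads and targets of bone morphogenetic protein and TGF-beta signalling, all measured, 1 rose and 8 fell with LPS at 4 h, with a median of −0.22. At 1 h 1 rose and 1 fell, and without set 3 none of the 15 did. At 2 h 3 fell, and 1 without set 3. Id2, an inhibitor of basic helix-loop-helix factors, stood at −0.42 ± 0.36, −1.31 ± 0.47 and −2.09 ± 0.48 (SD, n = 3), the latter 2 past the threshold, and its relative Id1 at −0.16, 0.03 and 1.25, with the 4 h value past it. Without set 1 the 1 h value of Id1 passed (−0.43, adjusted p = 0.000684). Of the Runx factors and Wwp1, 2 of 4 were measured, and Runx3 fell at 4 h (−0.49, adjusted p = 0.00302 in limma). With only the compared group in the fit 5 of the 15 fell at 4 h and none at 1 or 2 h, and the calls of Id2 at 2 h (adjusted p = 0.0968) and Runx3 at 4 h (adjusted p = 0.0564) were lost. Nfkb1, Runx2 and Wwp1 were not among the genes measured, so no values are given for them.

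Of 7 genes with kB-type enhancers, all measured, 2 rose at 1 h, 2 at 2 h and 5 at 4 h with LPS. Without set 1 the counts at 1 and 2 h were 4, without set 3 the count at 1 h was 1, and at 4 h without set 3 it was 3, while 1 fell at 4 h without set 1. Ifnb1, the interferon beta gene whose enhancer Hivep1 binds, stood at 2.67 ± 1.28, 3.57 ± 1.23 and 4.72 ± 0.84 with LPS, all past the threshold in limma, and the 1 h call was lost without set 3 (adjusted p = 0.121). With only the compared group in the fit its 1 and 2 h calls were lost (adjusted p = 0.367 and 0.0934), and 1, 1 and 3 of the 7 genes rose. With LPS at 4 h and ISO it stood at 3.80 ± 1.63 (SD, n = 3) and with PGE2 at 3.69 ± 1.67. The differences from LPS alone, −0.92 and −1.03, did not pass (adjusted p = 1) and were smaller than the SD of the combinations. Tnf stood at 3.63, 3.55 and 3.42 with LPS and at 3.53 and 3.52 with the combinations at 4 h. In all 6 lists, 0 members passed between either combination and LPS alone at 4 h in limma, and at most 1 member of a list had an unadjusted p under 0.05.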

How the data were processed

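The authors deposited 1 table of log2 ratios per probe and array. How images were read and ratios normalized, centred and directed is unstated in the labels and file header, and so the log2 scale was inferred from the largest absolute value of 6.64, which is log2 of 100, and per the values as deposited every array had a median of 0, with 10.9 to 45.7% of probes at exactly 0. Ratios were turned by the dye labels to treated over medium. Of 16281 probes, 13738 had 1 gene symbol in the platform annotation, updated through Entrez identifiers where these were found. Probes at 0 on every array were dropped, and 13260 were averaged to 10518 genes. Arrays of a dye-swap pair were averaged.

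The 44 pair means were fitted with limma 3.58.1 in R 4.3.3, with a mean per group (29 residual degrees of freedom), eBayes and Benjamini-Hochberg adjustment over all genes of a comparison, at a threshold of 0.05, two-sided. The fit was tested on simulated data. Alternatives changed the handling of zeros, the dye orientation, centring, gene filter, probe averaging, eBayes setting, samples fitted and the replicate block, or left out a set. Same-numbered sets pair the samples: their deviations from group means correlated at 0.197 to 0.600 in each pair of a combination with LPS. The main fit did not use this pairing. The replicate block gave each set number an effect shared by all groups and times, so it did not account for pairing within a time. Named genes were the members, the 5 genes nearest to each over 15 group means, and from each list the 2 largest changes with LPS at 1 or 4 h and known Hivep partners. The members and lists were chosen with earlier results of these data known.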

Additional observations from a re-analysis of the deposited data

Results flagged for a closer look

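For Hivep2 with LPS the mean of every set was below medium at 1 h and above it at 2 and 4 h, although the 1 h value itself did not pass (−0.26, limma adjusted p = 0.441) and its set 1 arrays read −0.79 and 0.18. The difference was 0.71 from 1 to 2 h (limma adjusted p = 0.150) and 1.23 from 1 to 4 h (limma adjusted p = 0.000292, and 0.0662 without set 2). For Hivep3 with LPS and ISO every set was below medium at 1 h and above it later, with differences of 0.76 from 1 to 2 h and of 1.03 from 1 to 4 h, and these were not tested. The share of all genes whose sets change side of medium in this way was not counted, so nothing is read from either pattern.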

How the results depend on the processing

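The 108 member values were recomputed under 13 alternatives. Of 1404 values 1334 kept their direction and side of the threshold (or, untested, stayed within 1 SD), 26 changed side, 44 moved and 0 reversed after a call. Several alternatives could not move the untested Hivep3 differences from LPS alone. Each member had 1 probe, and the gene filter, eBayes setting, replicate block and fit of compared groups alone left these estimates unchanged. For such values the count of unchanged results is therefore no measure of robustness. The 4 calls against medium became 8 on Cy5 arrays alone, 0 with only the compared group in the fit, and 1 to 9 when a set was left out (9 without set 1). With the set number as a replicate block they were 5, the added call being Hivep1 with LPS at 1 h, and no other member's call changed with the block. The 1 call between LPS times became 0 to 3 when a set was left out. Traf2 with LPS and PGE2 at 4 h, which had passed, reversed on Cy5 arrays alone, from 0.188 to −0.0681. With only the compared group in the fit, 0, 2 and 8 of 12 NF-kB genes passed with LPS at 1, 2 and 4 h in place of 9, 11 and 10, and the 1 h calls of Nfkbiz, Tnfaip3 and Traf1 and the 2 h calls of Tnfaip3 and Traf5 were lost (adjusted p from 0.0552 to 0.309). The cause was not tested, except that fewer samples enter the fits of compared groups alone and those without a set. The Hivep3 differences from LPS alone at 4 h stayed at −1.61 to −1.48 with ISO and −1.26 to −1.01 with PGE2 when a set was left out. Signal over background is unknown here, so it is unknown how far dim probes limit these ratios.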
